A study of Mus musculus with 26 samples.

Results

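The 8 interferon regulatory factor genes Irf1, Irf2, Irf3, Irf4, Irf5, Irf7, Irf8 and Irf9 were followed in macrophages sorted from mouse mammary tumours. They were taken by exact gene name from tables of 19549 gene rows, in which 7 of the 8 genes had a row of their own. Irf5 appeared only in a row joined with its neighbour Tnpo3, whose reads cannot be divided between both genes, so it was counted among no calls and its joint row is described separately. PyMT mammary tumour cells had been injected into a mammary gland of female FVB mice aged 5 to 7 weeks, with no further treatment or altered allele named in the labels. Of the 13 excised tumours, 8 were small (467 to 841.8 mg) and 5 were large (1504 to 2245 mg), with the limit at 1000 mg. Macrophages were sorted from each tumour as CD11b+ F4/80+ Ly6G- cells and kept in cycloheximide, which holds ribosomes on mRNA. About 10 percent of the sorted cells gave total mRNA, and the rest gave polysome mRNA, the mRNA carrying 3 or more ribosomes on a sucrose gradient. Both kinds of library are bulk, so fewer cells of a type and less RNA per cell cannot be told apart, and the tumours grew from injected cells and did not arise in the gland.

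Interferon regulatory factors are transcription factors that share an N-terminal DNA-binding domain and bind interferon-responsive elements. Irf3, Irf5 and Irf7 lie dormant in the cytoplasm until sensors of nucleic acids or bacterial products lead kinases to phosphorylate them, after which they switch on type I interferon and cytokine genes. Irf9 carries the signal of interferon receptors onward to DNA, Irf1 and Irf2 act largely as activator and antagonist at shared sites, and Irf4 and Irf8 set the identity of lymphoid and myeloid cells, macrophages and dendritic cells among them.

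Because the libraries separate ribosome-loaded mRNA from total mRNA, the start codon context of each factor is shown. Each sequence was read from a GENCODE transcript of the mouse build mm10, on the transcribed strand, and holds the 10 bases before the ATG and the 10 bases from it. Capitals mark the base 3 positions before the ATG, the ATG itself and the base right after it.
Irf3: tggctagAgcATGGaaaccc
Irf7: agacggaGcaATGGctgaag
Irf5: gccctttGccATGAaccact
Irf9: gcggctcAggATGGcctcag
Irf1: caaagccAccATGCcaatca
Irf2: agagggtAccATGCcggtgg
Irf4: cgcacgcGtcATGAacttgg
Irf8: cggcggcAggATGTgtgacc

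All 8 contexts had a purine 3 bases before the ATG, as did 86.9% of 10871 tested genes. These are the tested genes with an annotated transcript whose coding part begins with ATG, without those that have no leader or a very short one. A G right after the ATG was present in Irf3, Irf7 and Irf9 and in 52.6% of those genes. The leaders, the stretch before the start codon, ran from 53 nt in Irf8 to 500 nt in Irf7, around a median of 183 nt over those genes. The Irf8 leader was 83.0% G and C. An upstream ATG was found once in the leaders of Irf3 and Irf9 and 4 times in that of Irf5, and not in the other 5, while 52.6% of the genes had at least 1. The coding parts were 987 nt (Irf1) to 1491 nt (Irf5), beside a median of 1368 nt. These are descriptions of 1 transcript per gene.

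The loci are given on mm10. Irf3 lies at chr7:44997648-45002848, Irf7 at chr7:141262706-141266481 (the only one on the minus strand), Irf5 at chr6:29526625-29541871 and Irf9 at chr14:55603571-55610030. Irf1 lies at chr11:53770014-53778374, Irf2 at chr8:46739732-46847458, Irf4 at chr13:30749226-30766976 and Irf8 at chr8:120736358-120756694. Counts came from reads that do not keep the strand, so reads in shared exons cannot be assigned by direction. Irf3 overlapped Bcl2l12 over 1065 bp on the opposite strand, Irf9 overlapped Rnf31 over 123 bp and Irf7 overlapped Phrf1 over 45 bp. The annotation also holds Gm20388 across the whole 20337 bp span of Irf8 on the same strand, Gm17334 over 907 bp of Irf1, and Gm45479, Gm45481 and Gm31172 over 1723, 877 and 433 bp of Irf2, none of which had a row of its own. Irf5 and Tnpo3 overlapped over 1045 bp.

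Sequencing depth spanned 18018519 to 55609113 counts for total mRNA, and polysome libraries held between 7034173 and 28257436. The summed level of 10 macrophage markers was 8283 to 35269 CPM (read counts scaled to library size) in total mRNA and 3054 to 45697 CPM in polysome mRNA, with no marker at 0 throughout. Batch, as the labels name it, split the tumours into 7 (small replicates 1 to 5, large replicates 1 and 2) and 6 (small replicates 6 to 8, large replicates 3 to 5). Within batch 2 the total mRNA libraries of small replicates 6 and 7 and large replicate 3 stood apart from the other 10. Their median correlation with the other total mRNA libraries was 0.602 to 0.773, against 0.799 to 0.922, and Lars2 took 0.00304 to 0.00658% of their counts, against 0.0502 to 0.902%. The other 10 were not alike, so the split is partly one of degree. Small replicate 8 and large replicate 4, also of batch 2, had Lars2 shares of 0.0792 and 0.0502%, and the rest at least 0.433%. The correlation of 0.799 was that of small replicate 8, and the next lowest was 0.878. Small replicate 7 also had the lowest macrophage marker sums (8283 CPM in total and 3054 CPM in polysome mRNA). Its summed level of mammary epithelial markers was 3914 CPM in total and 893 CPM in polysome mRNA, and that of fibroblast markers 3337 and 2569 CPM, the highest of the 13 tumours in both sources. In total mRNA large replicate 3 had 757 CPM of epithelial markers and small replicate 6 had 126 CPM, against 52.2 to 420 CPM in the other 10 tumours.

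Among the factors with a row of their own, Irf8 was the most abundant mRNA by length, and Irf4 the least abundant in total mRNA. Irf5, with 2905 bp of merged exon, could not be placed. Its joint row with Tnpo3 averaged 248 CPM in total and 305 CPM in polysome mRNA, of an unknown part from Irf5. Whether Irf8 exceeded Irf5 is therefore not known. Length was that of the exons of all annotated transcripts merged, from 3442 bp in Irf3 to 7396 bp in Irf2. For Irf7 it was 3776 bp, its whole gene span. The orders below depend on this length, and orders by other lengths were not tested. On the scale of CPM per kilobase of exon, total mRNA held 69.9 ± 20.9 of Irf8 (SD, n = 13 tumours), followed by 23.4 ± 10.9 of Irf3, 18.3 ± 7.72 of Irf1, 12.8 ± 5.47 of Irf9, 8.83 ± 7.67 of Irf7, 5.30 ± 1.89 of Irf2 and 0.784 ± 0.594 of Irf4. Irf8 exceeded Irf3 in 12 of 13 tumours (exact permutation test of the paired log2 ratio, 2-sided, adjusted over 12 neighbour comparisons, p = 0.00146). Irf1 exceeded Irf9 in 10 of 13 (exact permutation adjusted p = 0.00527) and Irf2 exceeded Irf4 in 13 of 13 (exact permutation adjusted p = 0.000977). The order of Irf3 and Irf1, of Irf9 and Irf7 and of Irf7 and Irf2 was within the spread of the tumours, with exact permutation adjusted p-values of 0.345, 0.207 and 0.324. The 3 tumours with more Irf7 than Irf9 per kilobase were those that stand apart. Without them the means of Irf9 and Irf7 were 14.5 and 5.52 CPM per kilobase. That Irf9 exceeded Irf7 in each of the remaining 10 follows from which tumours were left out, so it cannot test this order. In the same 10 tumours Irf1 had a higher mean than Irf3 (21.5 and 18.0, exact permutation adjusted p = 0.185). Irf2 had a higher mean than Irf7 (5.71 and 5.52, exact permutation adjusted p = 0.4375).

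In polysome mRNA the same scale gave 55.4 ± 23.3 for Irf8, 17.3 ± 8.49 for Irf3, 11.6 ± 3.74 for Irf9, 10.5 ± 3.19 for Irf1, 6.14 ± 1.56 for Irf2, 6.13 ± 2.89 for Irf7 and 4.66 ± 3.78 for Irf4. Irf8 again stood above its neighbour Irf3, in 13 of 13 tumours (exact permutation adjusted p = 0.000977), and Irf1 above Irf2 in 13 of 13 with the same p (unadjusted 0.000244, the smallest these permutations can give). The order of Irf1 and Irf2 rests on their merged exon lengths of 3976 and 7396 bp. Before scaling by length, their polysome means were 41.7 and 45.4 CPM. Irf3 exceeded Irf9 in 10 of 13 tumours (exact permutation adjusted p = 0.0283). Per kilobase of merged exon, the neighbours Irf7 and Irf4 were not separated (exact permutation adjusted p = 0.256), nor were Irf2 and Irf7 (0.678) or Irf9 and Irf1 (0.481). The Irf7 level rests on a length of 3776 bp, its whole span. Its transcript described above had a leader of 500 nt, a coding part of 1371 nt and 42 nt after the stop codon. A shorter length would raise the Irf7 level, but the same holds for the other factors. The Irf2 transcript had a leader of 211 nt, a coding part of 1047 nt and 1236 nt after the stop codon, beside its merged 7396 bp. Transcript lengths would therefore not raise Irf7 above Irf2.

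**Figure D1:**
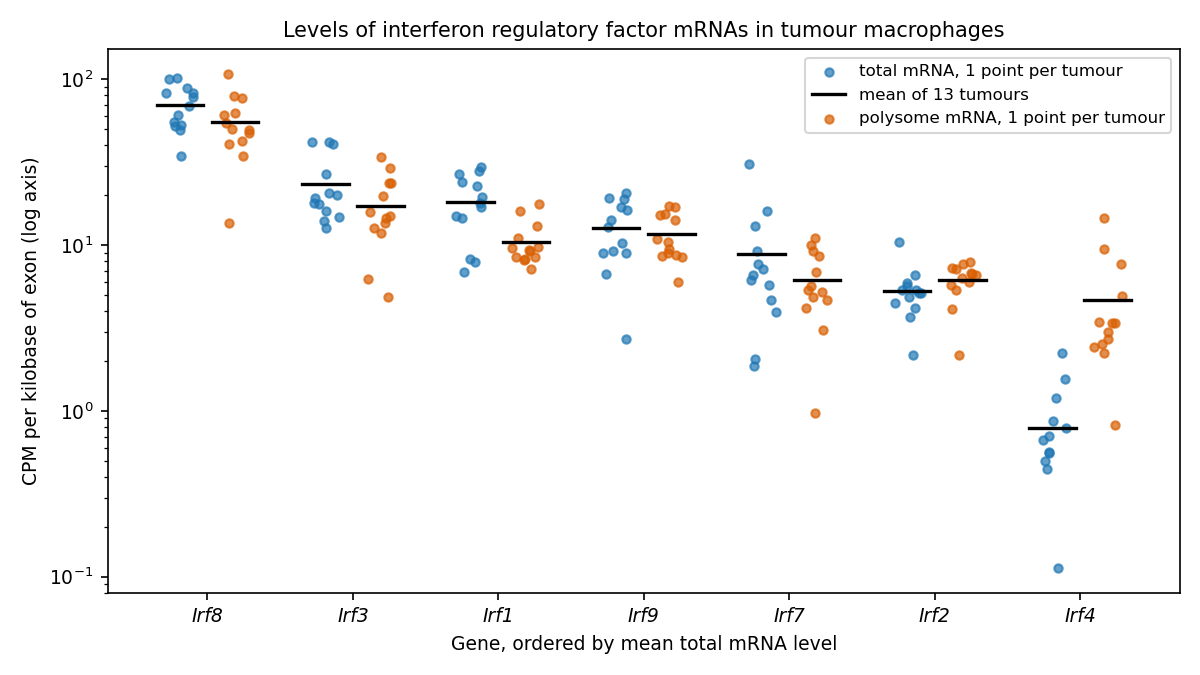
Level of 7 interferon regulatory factor mRNAs in CPM per kilobase of exon, on a log axis, with 1 point per tumour for total and for polysome mRNA and a bar at the mean of 13 tumours. The total mRNA library of small replicate 7, with an Irf4 count of 0, cannot be drawn. Irf8 is highest in both sources, and Irf4 is the gene whose polysome points lie furthest above its total points.

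Which factor mRNAs were found more in polysomes than in total mRNA was read from 1 fit over all 26 libraries with the tumour as a block. Irf4 was higher in polysomes and Irf1 lower, and the other 5 factors with a row of their own did not pass the threshold. The 2 calls among 7 factors stand beside 56.6% of the 12109 tested genes, of which 22.6% were higher and 34.0% lower. The median log2 fold was -0.26 over the 7 factors and -0.34 over all tested genes. All folds below are log2 values with their standard error (SE), from the edgeR quasi-likelihood test with Benjamini-Hochberg adjustment over all tested genes.

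Irf3 and Irf7 are the factors that start type I interferon transcription, Irf3 being present before infection and Irf7 being induced by interferon itself. Irf3 ranged from 43.7 through a median of 66.7 to 144 CPM in total mRNA and from 16.7 through 51.5 to 117 CPM in polysomes. The ranges overlapped, and the 3 highest total mRNA values, 141, 143 and 144 CPM, were those of the 3 tumours that stand apart. Its log2 fold in polysomes was -0.45 ± 0.24 (edgeR adjusted p = 0.112), with 8 tumours below 0 and 5 above. Without the 3 tumours it was 0.048 ± 0.23 (edgeR adjusted p = 0.874), in batch 1 alone 0.26 ± 0.25 and in batch 2 alone, which holds all 3, -1.12 ± 0.39 (edgeR adjusted p = 0.0454).

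Irf7 ranged from 7.05 through 25.0 to 116 CPM in total mRNA and from 3.67 through 20.3 to 41.9 CPM in polysomes. In total mRNA its SD was 0.868 of its mean, against 0.758 for Irf4, but without the 3 tumours that stand apart it was 0.433 for Irf7 and 0.571 for Irf4. These 3 tumours held the highest Irf7 values, 49.1, 60.2 and 116 CPM. The log2 fold in polysomes was -0.26 ± 0.26 (edgeR adjusted p = 0.398), and 0.035 ± 0.30 without the 3 tumours. The joint row of Irf5, the factor that acts downstream of Toll-like receptors on cytokine genes, ranged from 56.6 through 265 to 420 CPM in total mRNA and from 161 through 298 to 395 CPM in polysomes. Its log2 fold was 0.44 ± 0.19 (edgeR adjusted p = 0.0511; past the threshold in 9 of 23 alternative settings), and 0.17 ± 0.17 without the 3 tumours, whose total mRNA held 56.6, 98.8 and 127 CPM against at least 245 CPM elsewhere. How much of this row is Irf5 is not known.

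Irf9, which binds DNA in response to interferon receptors, was among the factors nearest to equal in both sources. It ranged from 14.7 through 69.6 to 111 CPM in total mRNA and from 32.1 through 55.9 to 93.2 CPM in polysomes. The log2 fold was -0.070 ± 0.18 (edgeR adjusted p = 0.756), with a 95% interval of -0.44 to 0.30. Under another library scaling (relative log expression) the sign turned, to 0.0025, so no direction is given.

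Irf1, the interferon-gamma-induced activator of antigen presentation genes, was lower in polysomes. It ranged from 27.4 through 71.1 to 118 CPM in total mRNA and from 28.5 through 36.9 to 70.3 CPM in polysomes. The groups overlapped, yet 9 of 13 tumours had less Irf1 in polysomes than in total mRNA, and of the 4 with more, 3 were the tumours that stand apart, which also held the lowest Irf1 in total mRNA, 27.4, 31.5 and 32.7 CPM. The fitted level was 1.68-fold lower in polysomes (log2 fold -0.75 ± 0.21, edgeR adjusted p = 0.00359), which placed Irf1 at percentile 38.6 of all tested genes. Without the 3 tumours the log2 fold was -0.99 ± 0.22 (edgeR adjusted p = 0.000582), in batch 1 alone -1.06 ± 0.26 (edgeR adjusted p = 0.00207), and in batch 2 alone, where the call was lost, -0.32 ± 0.33 (edgeR adjusted p = 0.496).

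Irf2, which can occupy the same sites as Irf1 and restrain them, ranged from 16 through 38.2 to 76.8 CPM in total mRNA and from 16.2 through 48.9 to 58.1 CPM in polysomes. The lowest value in both sources came from small replicate 7. The log2 fold was 0.20 ± 0.19 (edgeR adjusted p = 0.379), with 11 of 13 tumours above 0.

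Irf4 is known for its part in B cells, plasma cells and dendritic cells and in alternatively activated macrophages, and it had the highest polysome share of the factors. It ranged from 0 through 3.25 to 10.9 CPM in total mRNA and from 4.02 through 16.7 to 71.6 CPM in polysomes. Although these ranges overlapped, the polysome value was above the total value in 13 of 13 tumours, by 0.70 to 2.96 on the log2 scale in the 10 tumours that do not stand apart. The fitted fold was 6.53 (log2 fold 2.71 ± 0.46, edgeR adjusted p = 1.89e-05), at percentile 98.8 of all tested genes. Batch 1 alone gave 2.20 ± 0.41 and batch 2 alone 3.61 ± 0.89, and the log2 fold was 2.02 ± 0.34 without the 3 tumours (edgeR adjusted p = 3.12e-05). The call held in each of 23 alternative settings.

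Total mRNA of small replicate 7 had an Irf4 count of 0, which allows up to 0.0621 CPM (3 counts in that library, counting error only), while its polysome library held 11.97 CPM, at least 193-fold more. Leaving out that tumour gave a log2 fold of 2.51 ± 0.35 (edgeR adjusted p = 1.81e-06). The highest Irf4 polysome values, 71.6 CPM in small replicate 3 and 46.2 CPM in large replicate 2, came from the libraries with the highest summed level of 5 plasmacytoid dendritic cell markers, 130.8 and 39.8 CPM. The order did not hold further down: large replicate 1 had the next highest sum, 18.6 CPM, and the lowest Irf4, 4.02 CPM, while large replicate 3 had the next highest Irf4, 37.5 CPM, and a sum of 5.54 CPM. The sums were 0.574 to 18.6 CPM in these other 11 polysome libraries, and Siglech alone reached 130.8 CPM in the highest. The remaining defining markers Ccr9, Klk1, Pacsin1 and Spib each averaged at most 0.302 CPM in polysomes, and Cox6a2 had no row. The 8 conventional dendritic cell markers summed to 4.498 to 20.1 CPM in polysomes. Of them Batf3 averaged 8.61 CPM and was at 0 in no library, Ccr7 averaged 1.31 CPM and Cd209a 1.25 CPM, while Itgae, Zbtb46, Flt3, Xcr1 and Clec9a averaged at most 0.830 CPM and each was at 0 in 3 to 10 of 13 libraries. The 8 B and plasma cell markers summed to 0.0442 to 64.0 CPM in polysomes. Cd22 and Cd79b averaged 20.7 and 18.4 CPM there and each other marker at most 0.177 CPM. The sum was 62.9 CPM in small replicate 3 and 52.1 CPM in large replicate 2. It was highest in small replicate 2, where Irf4 was 24.2 CPM, and lowest in small replicate 7, where Irf4 was 11.97 CPM. The part of other cells in the Irf4 result was not tested.

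Irf8, required for monocytes, macrophages and several dendritic cell types to form, ranged from 244 through 489 to 723 CPM in total mRNA and from 96.0 through 355 to 760 CPM in polysomes. The ranges overlapped widely, but the polysome value was the lower one in 12 of 13 tumours, large replicate 2 being the exception. Its log2 fold was -0.38 ± 0.17, with an unadjusted p of 0.0330 that did not hold after adjustment (edgeR adjusted p = 0.0571), and -0.19 ± 0.18 without the 3 tumours. It passed in 4 of 23 alternative settings, 3 of which left out large replicate 2, small replicate 6 or small replicate 8 (-0.46 to -0.41).

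**Figure D2:**
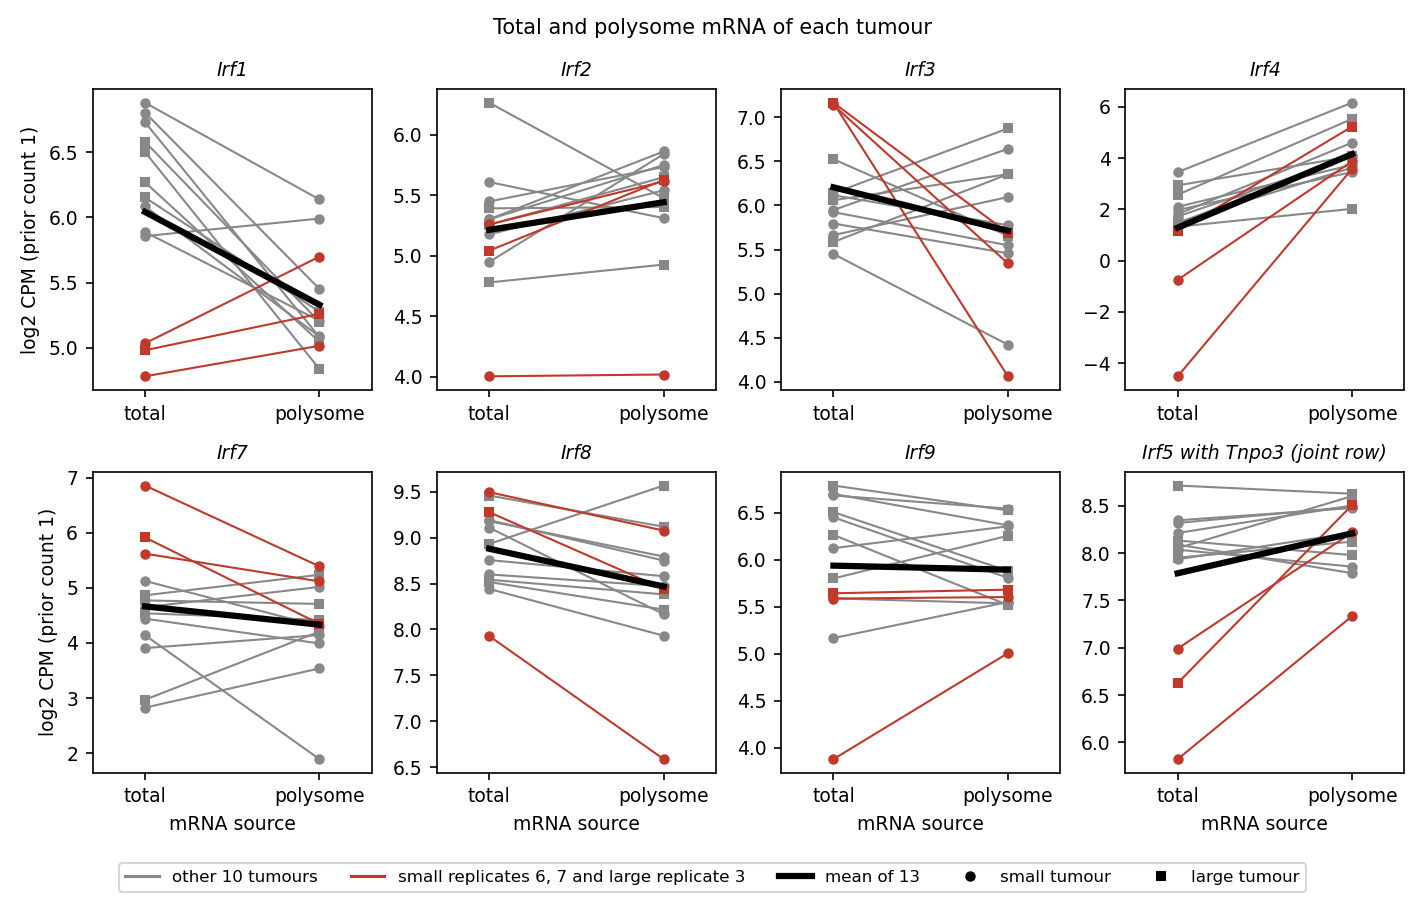
Total and polysome mRNA of each tumour joined by a line, in log2 CPM with a prior count of 1, for 7 factors and the joint row of Irf5 with Tnpo3 (panels have their own vertical scales). Red lines are small replicates 6 and 7 and large replicate 3, grey lines the other 10 tumours, and the thick line is the mean of 13. Irf4 rises in 13 of 13 tumours, Irf1 falls in 9 of 13, and the red lines start highest for Irf3 and Irf7 and lowest for Irf1 and Irf4.

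Whether the polysome share depended on batch was read from the source by batch term of the same fit. Of the 7 factors only Irf3 passed, with a polysome-minus-total difference lower in batch 2 by a log2 value of -1.40 ± 0.48 (edgeR adjusted p = 0.0435). This 1 call stands beside 17.4% of 12109 tested genes, with 10.5% higher and 6.95% lower. Irf3 differences were -1.03 to 0.73 in batch 1 and -3.10 to 0.77 in batch 2, and the lowest were those of small replicates 7 and 6 and large replicate 3, at -3.10, -1.80 and -1.48. Without these 3 tumours the term was -0.40 ± 0.48 (edgeR adjusted p = 0.699), and the call was also lost when small replicate 2, 3, 4, 5, 6 or 7 or large replicate 2, 3 or 4 alone was left out (log2 values of -1.42 to -1.02, edgeR adjusted p-values of 0.0534 to 0.160). Of the other factors, Irf4 had a term of 1.51 ± 0.92 (edgeR adjusted p = 0.273), which became -0.48 ± 0.69 without the 3 tumours, and Irf1 one of 0.82 ± 0.42 (0.179).

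The level of total mRNA itself also differed by batch. Irf3 was higher in batch 2 by 0.90 ± 0.27 on the log2 scale (edgeR adjusted p = 0.0348) and Irf7 by 1.45 ± 0.46 (0.0438), while Irf9 was lower, at -1.05 ± 0.30 (0.0299). These 3 calls among 7 factors stand beside 16.7% of the 11671 genes tested in total mRNA, 11.1% higher and 5.66% lower. Without the 3 tumours none of these factors passed, with 0.19 ± 0.23 for Irf3 (edgeR adjusted p = 0.708), 0.38 ± 0.50 for Irf7 (0.738) and -0.85 ± 0.29 for Irf9 (0.156), and the share of all genes called was 0.0432%. In polysome mRNA no factor was called between batches, where 21.4% of genes were, 11.1% higher and 10.3% lower, and the lowest adjusted p among the factors was that of Irf9 (-0.62 ± 0.28, edgeR adjusted p = 0.119). The 3 tumours also had the highest summed level of 8 conventional dendritic cell markers in total mRNA, 35.7 to 45.6 CPM against 3.51 to 23.5 CPM. In total mRNA of the 13 tumours Cd209a averaged 8.10 CPM, Batf3 6.35 CPM and each other marker at most 1.15 CPM. Flt3, Xcr1, Itgae and Clec9a reached at most 2.40, 1.64, 1.04 and 0.790 CPM in any total mRNA library. In polysome mRNA the sums of the 3 tumours, 16.6 to 20.1 CPM, overlapped those of the other 10, which reached 18.8 CPM. Small replicate 7 and large replicate 3 had the highest epithelial sums in total mRNA, given above. The part of these differences in the batch results was not tested.

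No factor passed the threshold between large and small tumours in total mRNA, and neither did any other gene (percent called 0 of 11671 tested genes, 538 at an unadjusted p under 0.05, 0 with DESeq2). The lowest adjusted p among the factors belonged to Irf9, whose large tumours held 90.9, 111, 49.9, 76.8 and 55.7 CPM and whose small tumours held 14.7 to 104 CPM around a median of 58.8. The large values lay within or just above the small range, and the log2 fold was 0.54 ± 0.30 (edgeR adjusted p = 0.865). Intervals were wide for the scarce and variable factors, from -1.37 to 2.56 for Irf4 and from -1.52 to 0.51 for Irf7. For Irf8 the log2 fold was 0.041 ± 0.29 (95% interval -0.58 to 0.66) and for Irf3 -0.047 ± 0.27 (-0.63 to 0.53).

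In polysome mRNA the size comparison likewise called no factor (percent called 0 of 10933 tested genes, 1362 at an unadjusted p under 0.05, 141 genes with DESeq2, none of them a factor). Irf3 came nearest. Its polysome values were 81.8, 117, 51.5, 50.4 and 81.8 CPM in large tumours and 16.7 to 99.9 CPM around a median of 45.3 in small tumours. All 5 large values lay above the small median and 4 lay inside the small range. The log2 fold was 0.82 ± 0.35 with an unadjusted p of 0.0314 (edgeR adjusted p = 0.358), 0.80 ± 0.50 in batch 1 alone, 0.71 ± 0.47 in batch 2 alone and 0.64 ± 0.39 without the 3 tumours. Irf8 had 0.46 ± 0.35 (edgeR adjusted p = 0.620) and Irf1 -0.29 ± 0.30 (0.728).

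The polysome-minus-total difference was the third size comparison, which asks whether ribosome loading moved apart from mRNA level. No factor and no gene passed (percent called 0 of 12109 tested genes, 1385 at an unadjusted p under 0.05, 121 genes with DESeq2, none of them a factor). For Irf3 the differences were 0.29, 0.73, -1.48, -0.87 and 0.77 in large tumours and -3.10 to 0.69 in small tumours around a median of -0.36, which overlapped. The fitted change was 0.91 ± 0.48 (edgeR adjusted p = 0.480). Irf4 had -1.30 ± 0.92 (edgeR adjusted p = 0.603, 95% interval -3.19 to 0.59), Irf7 0.63 ± 0.53 (0.671) and Irf1 -0.61 ± 0.42 (0.600). Irf2, at -0.21 ± 0.38 (0.874), was the factor nearest to 0. A p that misses the threshold does not show equal loading, and the Irf4 interval spans more than 3 log2 units.

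**Figure D3:**
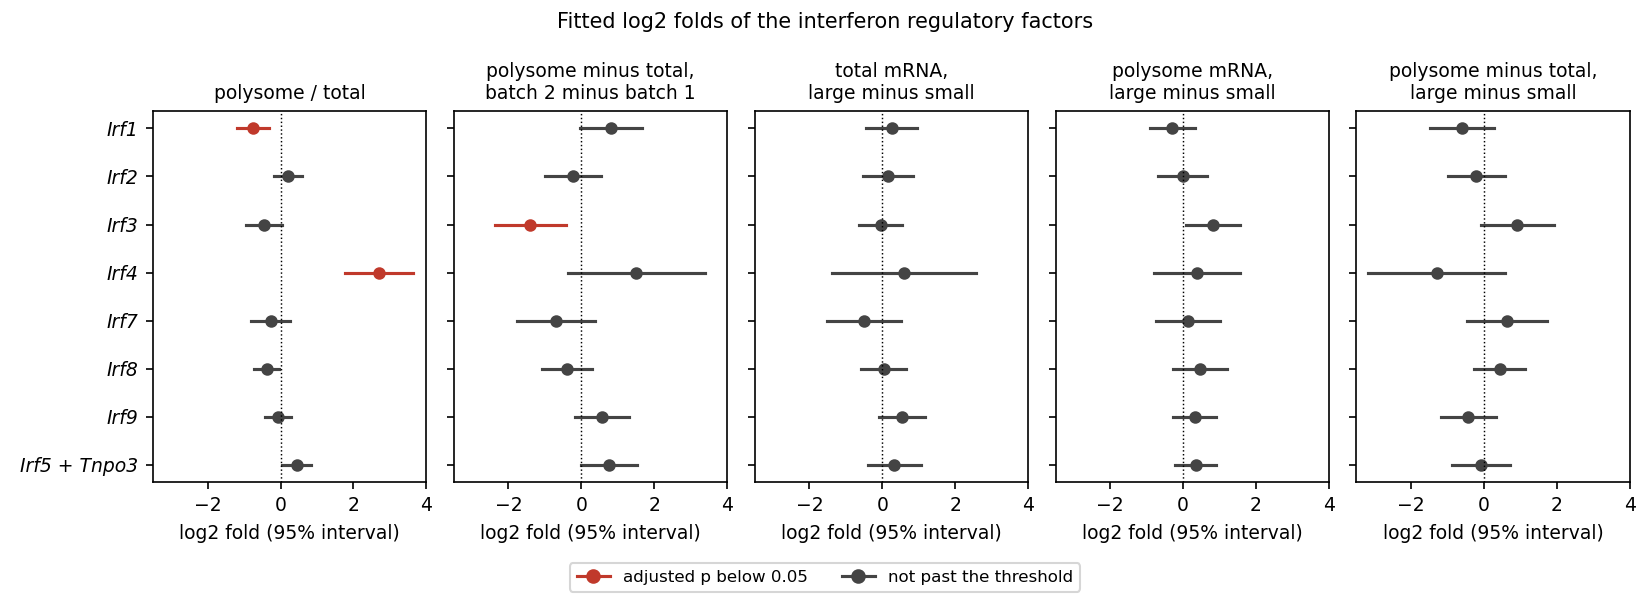
Fitted log2 folds (points) with 95% intervals (lines) of 7 factors and the joint row of Irf5 with Tnpo3 in 5 comparisons, red where the edgeR adjusted p is below 0.05. Irf1 and Irf4 are red in polysome against total mRNA and Irf3 in the batch term, which was lost without 3 tumours. The size comparisons hold no red point.

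Genes around the factors were described from lists of the pathway in the polysome against total comparison, in which 22.6% of all tested genes were higher and 34.0% lower, with a median of -0.34. The counts of each list are to be read against these shares, and nothing particular to a list is drawn from them. Of 16 tested sensors and adaptors, which detect nucleic acids or bacterial products and lead to Irf activation, 5 were higher in polysomes and 7 lower (median log2 fold -0.52). Myd88, the adaptor that Irf5 and Irf7 use, had 1.28 ± 0.18, the RNA sensor Tlr7 1.18 ± 0.21 and Tlr4, the receptor for lipopolysaccharide, -1.41 ± 0.25 (edgeR adjusted p = 4.26e-05 or lower for each). Of 12 kinases and ligases 3 were higher and 7 lower (median -0.74). Tbk1, the kinase of Irf3 and Irf7, had -2.64 ± 0.34, its binding partner Tank -2.71 ± 0.37 and the ligase Traf3 1.67 ± 0.26.

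The 11 interferon genes with a row were scarce, and none passed the filter. In total mRNA 9 of the 11 had a count in at least 1 library, with mean levels of at most 0.0825 CPM (Ifnb1) and a highest single value of 0.395 CPM (Ifnl3). In polysomes all 11 had a count of 0 in every polysome library, which allows up to 0.101 to 0.540 CPM per gene and library (3 counts, counting error only). Among 12 genes of interferon receptors and their signalling 0 were higher and 5 lower (median -0.56), with -1.62 ± 0.17 for Ifngr1, -1.45 ± 0.19 for Ifnar2 and -1.34 ± 0.23 for Ifngr2, subunits of the interferon receptors.

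Of 10 genes in a list of partner and Irf2-binding proteins, which also holds Id2 and Zeb2 as accompanying genes, 5 were higher in polysomes and 0 lower (median 0.62). They included the Irf2 corepressors Irf2bp2, at 2.33 ± 0.22, and Irf2bp1, at 1.52 ± 0.34, and Id2, an inhibitor of helix-loop-helix factors, at 2.06 ± 0.21. Of 26 interferon-stimulated targets 0 were higher and 12 lower (median -0.999), among them the guanylate-binding proteins Gbp3 at -2.75 ± 0.22, Gbp2 at -2.23 ± 0.19 and Gbp7 at -1.95 ± 0.22, members of a family of similar genes between which reads may be divided uncertainly. Of 10 antigen presentation genes that Irf1 and Irf8 are known to act on, 2 were higher and 4 lower (median -0.34), with Ciita, the activator of class II genes, at 1.03 ± 0.26, the peptide transporter Tap1 at -1.07 ± 0.21 and B2m, the class I light chain, at -1.12 ± 0.30. Without the 3 tumours that stand apart the counts higher and lower were 4 and 8 for sensors, 3 and 7 for kinases, 0 and 5 for receptors, 4 and 0 for partners, 1 and 9 for stimulated targets and 3 and 3 for antigen presentation, beside 22.6% and 29.3% of 11992 genes.

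**Figure D4:**
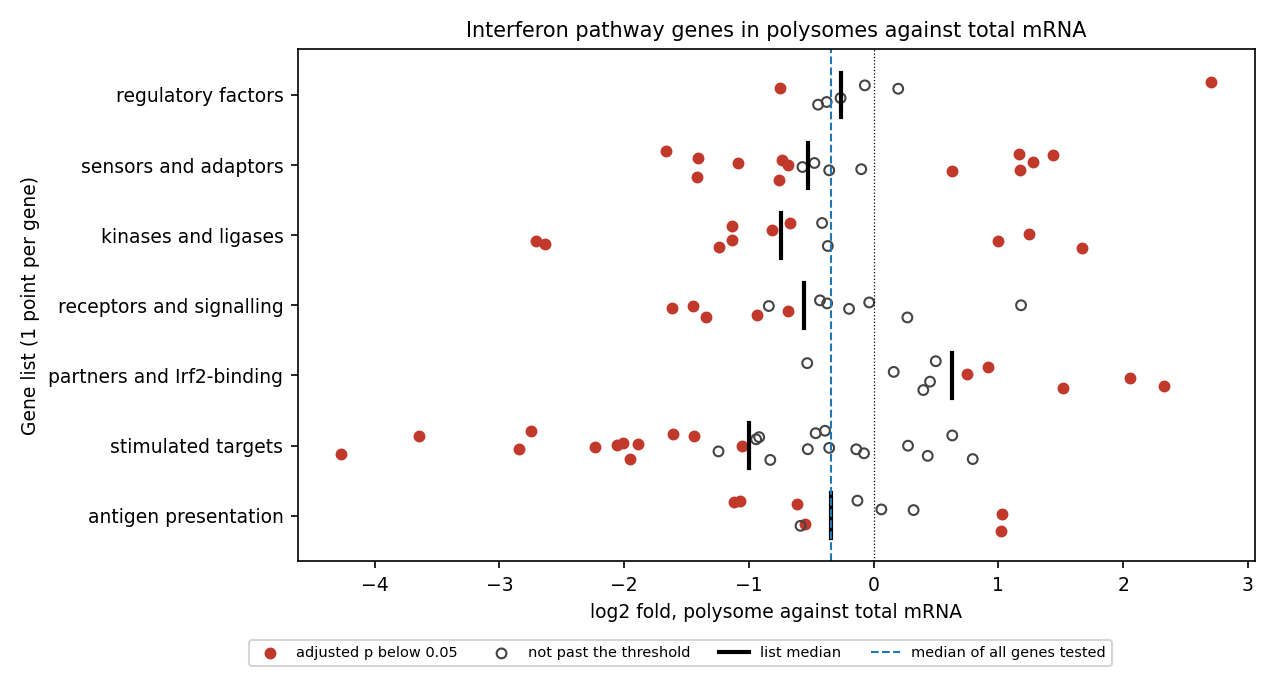
Log2 fold in polysome against total mRNA of each tested gene in 7 lists, with filled red points for an edgeR adjusted p below 0.05, a black bar at the list median and a dashed line at the median of all tested genes, -0.34. Irf4 is the right-most regulatory factor at 2.71, and the median of the stimulated targets is -0.999.

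In the size comparisons none of these pathway genes passed. Psmb9 and Psmb8, proteasome subunits that interferon induces, had the lowest adjusted p among the named pathway genes in polysome mRNA, with log2 folds of 1.76 ± 0.33 (edgeR adjusted p = 0.1001) and 1.20 ± 0.30 (0.144) in large tumours. In the same comparison Irf1, which acts on these genes, had -0.29 ± 0.30.

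How the factors varied together was described by the correlation of their polysome-minus-total differences over 13 tumours, whose libraries share depth, scaling and batch. Irf3 and Irf4 moved in opposite directions (Pearson r = -0.85), but r was -0.27 over the 10 tumours that do not stand apart. Irf3 and Irf7 had r = 0.66 (0.80 over the 10), Irf7 and Irf8 0.59 (0.67) and Irf1 and Irf9 0.60 (0.59). Irf1 and Irf3 had -0.73 (-0.34). Of the 8008 genes with at least 10 CPM on average, the ones most like Irf4 were Cd36 (0.95), D5Ertd579e (0.94) and Atl3 (0.92), those like Irf3 included Pdlim4 (0.94) and Hspbp1 (0.93), and those most like Irf1 were Naa25 (0.89), Itch (0.89) and Arglu1 (0.88). Over the 10 tumours these were 0.69, 0.77 and 0.50 for the Irf4 genes, 0.79 and 0.87 for the Irf3 genes and 0.74, 0.70 and 0.72 for the Irf1 genes. For Irf8 they were Mfsd10, Emilin2 and Ttll12 (0.86 to 0.87; 0.79 to 0.86 over the 10), for Irf7 B9d2, Alkbh7 and Neu1 (0.85 to 0.88; 0.81 to 0.92), for Irf2 Pdp2, Lrrc3 and Irak4 (0.80 to 0.86; 0.80 to 0.93) and for Irf9 Ppih, R3hcc1l and Mrpl1 (0.80 to 0.83; 0.62 to 0.88). These genes were chosen over 13 tumours.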

How the data were processed

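Macrophages of 13 tumours were sequenced as total and polysome mRNA with SmartSeq2, per the labels' protocols. HISAT, HISAT2, limma and mm10 are named in the submitters' processing notes, with no role. Which counting tool and annotation were used is not given in the sources used here. The authors deposited whole-number read counts per gene, and log2 values that differed from log2 CPM by 1 constant per library (largest deviation 5.14e-14) and were only checked. Counts were filtered with filterByExpr, scaled by TMM, and fitted in edgeR 4.0.16 with its quasi-likelihood test, robust option (R 4.3.3), Benjamini-Hochberg threshold 0.05. Paired comparisons used the tumour as a block with source by size and source by batch terms, and size within a source used batch as a covariate. Per the labels, each tumour's pair of libraries came from the same sorted cells. Deviations of both correlated by a median of 0.249 (lowest 0.0372) within and -0.0167 between tumours. Levels are TMM-scaled CPM, and log2 CPM used a prior count of 1. Where nothing says that tumours are separate mice, p-values measure the spread between tumours. Exon lengths (all transcripts of a gene merged), loci and start codons came from the GENCODE annotation of mm10. Scripts were tested on simulated data. Alternatives were other scalings, filters, tests (DESeq2 1.42.0, voom of limma 3.58.1), single batches, tumour weight and tumours left out. Leaving out the 3 tumours that stand apart was chosen after seeing the data. Members and lists were chosen with earlier results of these data known. Named were all members, up to 3 genes per list (2 for size) by lowest p among those averaging 10 CPM or more, of which a part is given, and the 3 genes most like each member, of which 1 is not reported here.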

Additional observations from a re-analysis of the deposited data

Results flagged for a closer look

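The polysome-minus-total difference of Irf3 differed between batches, by -1.40 on the log2 scale, and this call was lost without the 3 tumours that stand apart. Among 48 groups of 8 or 5 tumours tested for a value far from the others, 5 held one, where chance gives about 1 in 20. In total mRNA of large tumours, Irf1 was 4.98 log2 CPM in large replicate 3, below a median of 6.39 in the other 4. Small replicate 7 was low for Irf2 in total mRNA (4.004 against a median of 5.30 log2 CPM) and in polysome mRNA (4.02 against 5.73), and for Irf8 in polysome mRNA (6.59 against 8.58). This tumour had the lowest macrophage marker sums (8283 CPM in total and 3054 CPM in polysome mRNA) and the highest epithelial (3914 and 893 CPM) and fibroblast sums (3337 and 2569 CPM), whose part in these values was not tested. In polysome mRNA of small tumours, Irf4 was 6.16 log2 CPM in small replicate 3, above a median of 3.88 in the other 7.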

How the results depend on the processing

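Irf4 stayed called in polysome against total mRNA in 23 of 23 alternatives (log2 2.02 to 3.61) and Irf1 in 22 of 23 (-1.06 to -0.32). With no replicate block for the tumour pairing, the counts of genes called were 6266 (polysome against total), 1610 (batch term) and 0 (size), no call among the factors changed, and Irf1 had -0.81 and Irf4 2.57. Leaving out 1 tumour gave 2 to 4 factors called in polysome against total mRNA (4 without small replicate 8, which added Irf3 at -0.56 and Irf8 at -0.41), 0 to 1 factors and 1385 to 2227 genes in the batch term (1385 without small replicate 6), and 0 to 42 genes by size in polysome mRNA (42 without small replicate 5). Without the 3 tumours that stand apart the batch term called 865 genes and 0 factors. Batch 2 alone called 3606 genes in polysome against total mRNA. By size, in polysome mRNA and in polysome minus total, DESeq2 called 141 and 121 genes and no filter 3 and 8, and log2 weight gave 1 gene in polysome mRNA. Relative log expression moved the median of all genes in the batch term by -0.11, and DESeq2 called 3112 genes there.

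Signs turned only for folds that were not called in the reported fits, and the cause was not tested. In polysome against total mRNA, Irf9 was 0.0025 with relative log expression, 0.0023 with DESeq2 and 0.23 in batch 2 alone, Irf3 and Irf7 were 0.26 and 0.19 in batch 1 alone and 0.048 and 0.035 without the 3 tumours. Without those tumours Irf4 was -0.48 in the batch term. By size in total mRNA, batch 1 alone gave -0.13 for Irf1, -0.28 for Irf2, 0.30 for Irf3 and -0.26 for Irf4, batch 2 alone -0.24 for Irf8, log2 weight -0.067 for Irf8, no batch term -0.033 for Irf1 and 0.050 for Irf3, and leaving out the 3 tumours -0.059 for Irf2, 0.19 for Irf3 and -0.095 for Irf4. By size in polysome mRNA, voom gave 0.085 for Irf2, batch 1 alone -0.19 for Irf4, batch 2 alone 0.20 for Irf2, -0.22 for Irf7 and -0.14 for Irf8, and leaving out the 3 tumours -0.085 for Irf4. The joint Irf5 row by size in polysome minus total was 0.23 in batch 1 alone, 0.069 with no batch term and 0.11 without the 3 tumours. Leaving out 1 tumour gave ranges across 0 for Irf9 in polysome against total mRNA (-0.12 to 0.070), by size in total mRNA for Irf2 (-0.082 to 0.37), Irf3 (-0.17 to 0.16) and Irf8 (-0.15 to 0.23), in polysome mRNA for Irf2 (-0.26 to 0.17), Irf4 (-0.031 to 0.80) and Irf7 (-0.052 to 0.30), and in polysome minus total for Irf2 (-0.34 to 0.023) and the joint row (-0.33 to 0.17). At this depth a count of 0 allows 0.0540 to 0.148 CPM in total and 0.101 to 0.540 CPM in polysome mRNA.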
